A study of Homo sapiens with 24 samples.

Results

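The genes described here encode 10 chromatin and transcription proteins that bind the O-GlcNAc transferase OGT or are modified by it: HCFC1, TET1, TET2, TET3, BAP1, ASXL1, SIN3A, FOXK1, FOXK2 and SP1. They were taken by symbol from the 13236 gene groups of the count tables, not by a cut on their values, though earlier results of these data were known. They hold 163 of the 164219 bins into which the authors' tables divide gene models. Of these bins 7, in 5 of the genes, belong to the 4769 in the authors' class of detained introns, a term for introns that remain unspliced in polyadenylated transcripts held in the nucleus. HEK293T cells, an established human embryonic kidney line, received OSMI-2, an inhibitor of OGT, at 10 µM, or TMG (Thiamet-G), an inhibitor of the O-GlcNAcase OGA (named MGEA5 in the tables), at 5 µM, each for 2 h or 6 h. DMSO was the control, and every drug and time had DMSO libraries of its own: the libraries of OSMI-2 and its DMSO are called the OSMI-2 experiment, and those of TMG and its DMSO the TMG experiment. All 8 groups had 3 samples in the labels, and the tables analysed here hold 23 libraries, with 2 for OSMI-2 at 6 h. Nothing in the labels says that the libraries of a group came from separate cultures, so p-values measure the spread between these libraries, which may be technical.

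OGT attaches a single N-acetylglucosamine sugar to serine and threonine residues of proteins in the nucleus and cytoplasm, and OGA removes it. HCF-1, the product of HCFC1, is a transcription coregulator that OGT both modifies and cleaves. The TET enzymes oxidise methylcytosine in DNA and recruit OGT to chromatin, BAP1 and ASXL1 form a histone deubiquitinase that binds HCF-1 and the forkhead factors FOXK1 and FOXK2, SIN3A is the scaffold of a histone deacetylase complex, and SP1 is an activator that binds GC boxes. The assay measured the RNA of these genes, not their proteins or the sugar on them.

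Total counts ran from 39465746 to 100161560 per library. Several markers fixed for the line were found throughout: VIM lay between 306 and 787 CPM (counts divided by the library's total and put on a common scale), and KRT8, KRT18, CDH2 and NEFL were detected in every library, whereas LHX1 did not exceed 0.695 CPM. PTPRC, CD3E, ALB, APOA1, PECAM1, MYOD1 and DES, markers of other cell types, were not analysed here. DMSO library a of the 6 h OSMI-2 experiment stood apart from libraries b and c of its group in TET1, TET2 and SIN3A, and results that rest on it are given without it below. Detained introns took 0.756 to 1.21% of all counts in the DMSO 6 h libraries of the OSMI-2 experiment, against 0.232 to 0.328% in the other 8 libraries of that experiment and 0.377 to 0.669% in the TMG experiment; what moved with this difference was not tested.

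Per length of the bins outside detained introns, BAP1 had the highest level of the 10 genes, with a median of 70.9 CPM per kilobase over the 23 libraries and a range of 53.5 to 154. HCFC1 followed with a median of 34.7 and a range of 27.2 to 59.3, which overlapped BAP1 slightly. SP1 (median 11.8), SIN3A (10.3), ASXL1 (10.3) and FOXK2 (9.52) had overlapping ranges over the 23 libraries, but their order differed between the experiments. SP1 lay below ASXL1 and FOXK2 in every library of the OSMI-2 experiment and above both in every library of the TMG experiment. In DMSO at 2 h the means of SP1, ASXL1 and FOXK2 were 2.74, 8.62 and 10.5 CPM per kilobase in the former. In the latter they were 13.1, 9.98 and 9.33. TET3 (2.18), TET2 (1.22) and TET1 (1.07) were the lowest, and their ranges also overlapped. FOXK1 had a median of 0.848 over all its bins and 4.67 CPM per kilobase once a bin of 36684 bases was left out, so its place in the order depends on the model. The SP1 model has only 5 bins.

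**Figure D1:**
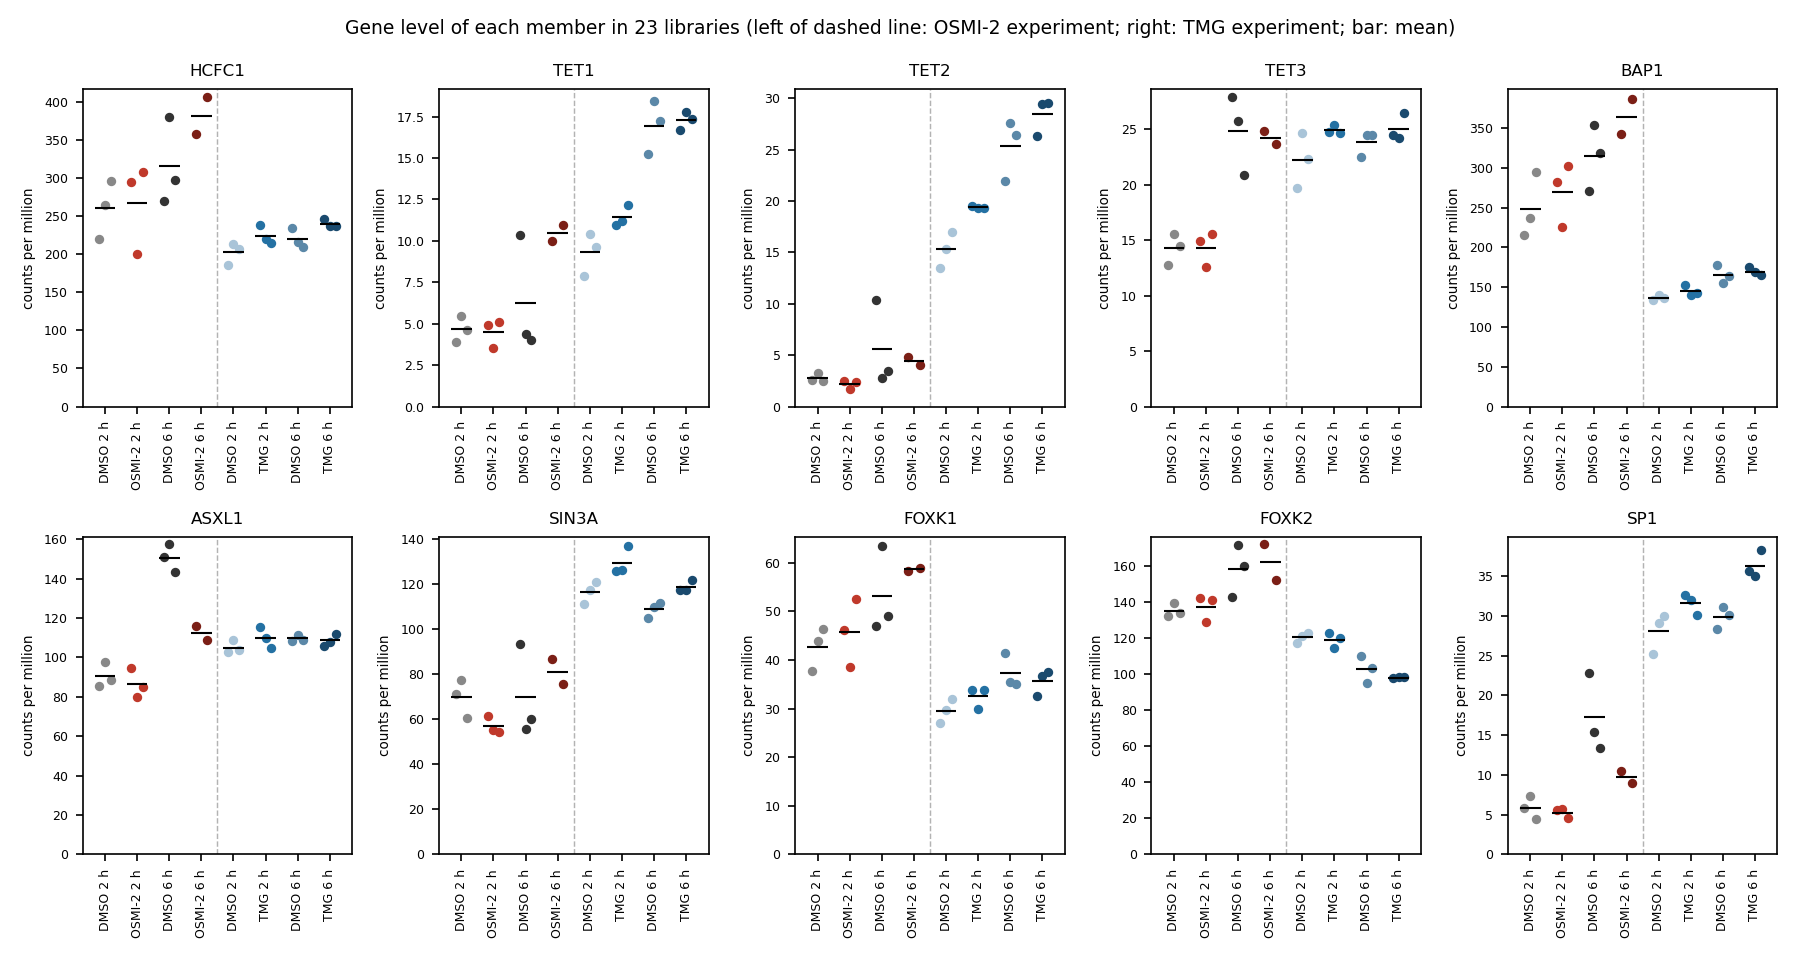
Gene level of each member, in CPM on the library's plain total (linear axis from 0), with 1 point per library, a bar at the group mean and the OSMI-2 experiment left of the dashed line. All TET2 and SP1 points on the right of the line lie above those on its left, by less for SP1 at DMSO 6 h (13.4 to 22.9 CPM) than at 2 h, and DMSO library a at 6 h in the OSMI-2 experiment holds the high TET1 and TET2 points at 10.4 CPM.

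Neither drug moved most of these genes at the threshold used, an adjusted p under 0.05 in the quasi-likelihood test of edgeR with Benjamini-Hochberg adjustment over all genes tested. All 10 passed the filter on low counts in every comparison. OSMI-2 changed none of the 10 at 2 h and TET1 alone at 6 h; TMG changed TET2 alone at 2 h and SP1 alone at 6 h, and all 3 were higher with the drug. The background was 0% of 12343 genes called for OSMI-2 at 2 h, 4.94% of 12484 at 6 h, 7.91% of 12361 for TMG at 2 h and 6.03% of 12103 at 6 h, so 0 or 1 member in 10 per comparison lies near it; for genes called higher it was 2.57%, 1.25% and 1.19% in the last 3. At OSMI-2 2 h, where edgeR called 0 genes, 160 had an unadjusted p under 0.05, none of them a member, and DESeq2 called 1 gene. Median log2 fold changes of the 10 were -0.02, 0.44, 0.11 and 0.06 in that order, beside -0.01, 0.15, -0.03 and -0.03 over all genes tested.

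The RNAs of the drugs' own targets, OGT and MGEA5, are given for reference. With OSMI-2 at 6 h, MGEA5 fell by 1.93 on the log2 scale (SE 0.33, edgeR adjusted p = 0.000136) and OGT fell by 1.85 (SE 0.33, edgeR adjusted p = 0.000346). With TMG at 6 h, MGEA5 rose by 0.72 (SE 0.06, edgeR adjusted p = 6.01e-06) and OGT fell by 0.48 (SE 0.07, edgeR adjusted p = 0.00164). Neither passed the test at 2 h with either drug. From DMSO at 2 h to DMSO at 6 h, OGT rose by 1.81 in the OSMI-2 experiment (SE 0.29, edgeR adjusted p = 0.000109). In the TMG experiment it rose by 0.60 (SE 0.07, edgeR adjusted p = 4.77e-07). MGEA5 had 0.53 (SE 0.26) and 0.17 (SE 0.07) in the same order, and neither value passed. The drug values at 6 h are measured against these same DMSO 6 h libraries, and what moved with them was not tested.

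**Figure D2:**
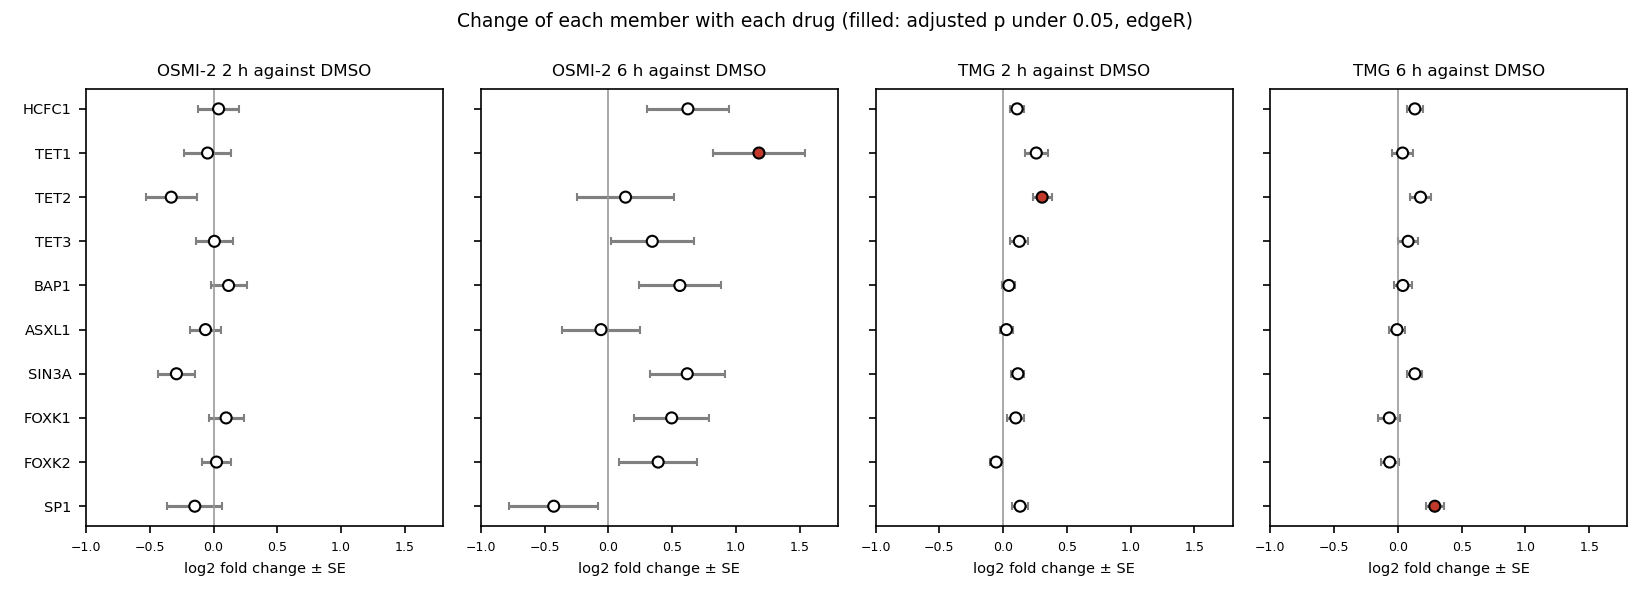
Log2 fold change of each member against DMSO with its standard error, 1 panel per drug and time; filled points passed an adjusted p of 0.05 in edgeR. The standard errors at OSMI-2 6 h, with 2 treated libraries, are several times as wide as those for TMG.

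Among the TET enzymes, TET1 was higher with OSMI-2 at 6 h. Its normalised level was 7.98, 4.08 and 4.10 CPM in DMSO libraries a, b and c and 11.8 and 12.6 CPM with OSMI-2. Both treated libraries lay above all 3 controls, and library a was the highest control. The log2 fold change was 1.18 (SE 0.36, edgeR adjusted p = 0.0346), and 8 of the 10 members had a positive value in this comparison. The call ended without DMSO library b (adjusted p = 0.118), DMSO library c (0.244), OSMI-2 library a (0.523) or OSMI-2 library b (0.884), all in edgeR, and without DMSO library a the log2 fold change was 1.62 and the call held. It also ended when scaling factors came from genes alone, at a log2 fold change of 0.93 (edgeR adjusted p = 0.144): relative to plain library totals, the scaling over genes and introns raised OSMI-2 6 h fold changes by 0.37 on the log2 scale and that over genes alone by 0.14. On plain totals, DMSO library a had 10.4 CPM of TET1 beside 10.0 and 10.9 with OSMI-2, so the groups overlap on that scale.

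Without DMSO library a, 5 of the 10 members passed at OSMI-2 6 h in place of 1. These were TET1, TET2 with a log2 fold change of 0.80 (edgeR adjusted p = 0.0227), SIN3A with 0.79 (0.00616), HCFC1 with 0.48 (0.0191) and BAP1 with 0.42 (0.0162). Over all genes, calls reached 5268 at most when a single library was left out, against 617 with all libraries. The share of all genes called without DMSO library a is not given here, so the 5 members have no background beside them. With all 3 controls, SIN3A (0.62, SE 0.29), HCFC1 (0.62, SE 0.32), BAP1 (0.56, SE 0.32), FOXK1 (0.50, SE 0.30) and FOXK2 (0.39, SE 0.31) had positive log2 fold changes that did not pass (edgeR adjusted p from 0.186 to 0.458). TET3 had 0.34, TET2 0.13, ASXL1 -0.06 and SP1 -0.43 on the same scale. In 7 of the 10 the OSMI-2 libraries lay above, and in SP1 below, every DMSO library, while 47.2% of all genes had groups that did not overlap. This holds after scaling: on plain totals all 7 overlapped their controls, SP1 was still lower, and ASXL1, with 151, 157 and 143 CPM in DMSO and 116 and 109 CPM with OSMI-2, was lower without overlap.

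TET2 was higher with TMG at 2 h. Its normalised level was 14.1, 15.4 and 17.1 CPM in DMSO and 19.1, 19.1 and 19.3 CPM with TMG, with no overlap. The log2 fold change was 0.31 (SE 0.07, edgeR adjusted p = 0.0110). The adjusted p of this edgeR test was 0.0507 without DMSO library a, 0.0572 without TMG library b and 0.0592 without TMG library c, and the gene did not pass in a fit of all libraries. TET1 had a log2 fold change of 0.26 (SE 0.09, edgeR adjusted p = 0.0765) and TET3 of 0.13 (SE 0.07, edgeR adjusted p = 0.278), neither of which passed. At TMG 6 h the TET2 value was 0.18 (SE 0.08, edgeR adjusted p = 0.213) and that of TET1 0.04 (SE 0.08).

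SP1 was higher with TMG at 6 h. Its normalised level was 29.3, 30.1 and 29.95 CPM in DMSO and 36.1, 34.8 and 38.3 CPM with TMG, and the groups did not overlap. The log2 fold change was 0.29 (SE 0.07, edgeR adjusted p = 0.0247). Leaving out any library other than DMSO library a ended the call, with edgeR adjusted p between 0.0520 and 0.158 and log2 fold changes between 0.25 and 0.32, and so did a fit of all libraries. At TMG 2 h SP1 had a value of 0.13 (SE 0.07, edgeR adjusted p = 0.215). TMG library b at 6 h, which held a single bin of PRMT2 at 1.65% of all its counts, is among those libraries.

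The coregulators and forkhead factors had small fold changes with TMG. At 2 h HCFC1 had 0.11 (SE 0.05) and SIN3A 0.12 (SE 0.05), and at 6 h both had 0.13 (SE 0.06), with edgeR adjusted p from 0.177 to 0.227. BAP1, ASXL1, FOXK1 and FOXK2 lay between -0.07 and 0.10 at both times. With OSMI-2 at 2 h, the 10 members lay between -0.33 (TET2) and 0.12 (BAP1).

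Sequences upstream of the 3 genes that passed with a drug are shown from RefSeq (GRCh38.p14, a later build than the hg19 of the count tables), as the 250 bases before the most upstream start listed, with GC boxes (GGGCGG on either strand, the site that SP1 protein binds) in capitals. SP1 lies at chr12:53379926-53380175, plus strand, TET1 at chr10:68560087-68560336, plus strand and TET2 at chr4:105145625-105145874, plus strand.
SP1: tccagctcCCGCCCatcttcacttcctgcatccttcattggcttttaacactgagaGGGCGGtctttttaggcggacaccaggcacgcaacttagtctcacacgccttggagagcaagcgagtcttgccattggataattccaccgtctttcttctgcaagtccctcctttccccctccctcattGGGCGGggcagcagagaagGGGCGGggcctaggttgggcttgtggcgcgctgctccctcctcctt
TET1: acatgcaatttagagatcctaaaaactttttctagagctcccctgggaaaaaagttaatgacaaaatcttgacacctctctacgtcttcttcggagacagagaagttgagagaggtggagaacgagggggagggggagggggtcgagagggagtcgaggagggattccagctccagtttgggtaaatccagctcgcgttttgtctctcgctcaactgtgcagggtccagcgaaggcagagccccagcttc
TET2: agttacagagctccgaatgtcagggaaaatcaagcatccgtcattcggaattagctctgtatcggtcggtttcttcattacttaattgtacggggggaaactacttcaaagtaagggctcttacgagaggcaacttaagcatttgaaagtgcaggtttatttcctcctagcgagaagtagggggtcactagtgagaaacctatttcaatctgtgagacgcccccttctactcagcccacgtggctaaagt
The SP1 window holds 4 GC boxes, and those of TET1 and TET2 hold 0. Over all 35116 windows of the same length, 42.6% hold at least 1. Of the other members with a window, FOXK1 has 4, FOXK2 and TET3 have 3 each, SIN3A has 1 and ASXL1 has 0 at the most upstream start. The other start listed for TET2 has 5 GC boxes and that for SP1 has 8. The forkhead motif TGTTTAC, on either strand, is in 0 of the 16 windows of the 8 members that matched the table and in 2.98% of all windows. Motif and fold change were not compared, and a match is no sign of binding.

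The 5 genes that hold them are ASXL1, BAP1, FOXK1, HCFC1 and TET1, with 2 each in BAP1 and HCFC1. In hg19 they are ASXL1_E013 (chr20:31017235-31017703), BAP1_E005 (chr3:52437911-52438468), BAP1_E008 (chr3:52439311-52439780), FOXK1_E010 (chr7:4799227-4800694), HCFC1_E013 (chrX:153220994-153221641), HCFC1_E027 (chrX:153225866-153226992) and TET1_E004 (chr10:70360792-70404454). The first 6 are 469 to 1468 bases long, below the median of 1798 bases over the 4769. The TET1 intron spans 43663 bases, longer than 99.4% of them.

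In the OSMI-2 experiment the intron of HCFC1 named HCFC1_E013 took 0.147, 0.254 and 0.288% of the gene's count in DMSO at 2 h and 0.184, 0.180 and 0.160% with OSMI-2 at 2 h. At 6 h it took 1.35, 1.18 and 1.10% in DMSO and 0.224 and 0.234% with OSMI-2. The DMSO 6 h libraries were thus the high ones, and both OSMI-2 6 h libraries lay within the range of the 2 h DMSO libraries. BAP1_E005 took 0.402, 0.372 and 0.414% in DMSO at 2 h, 1.82, 1.53 and 1.22% in DMSO at 6 h and 0.364 and 0.348% with OSMI-2 at 6 h. ASXL1_E013 took 0.424, 0.569 and 0.458%, then 2.05, 1.75 and 1.29%, and 0.583 and 0.766% in the same order. In all 3 the DMSO 6 h group did not overlap any other group of that experiment.

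**Figure D3:**
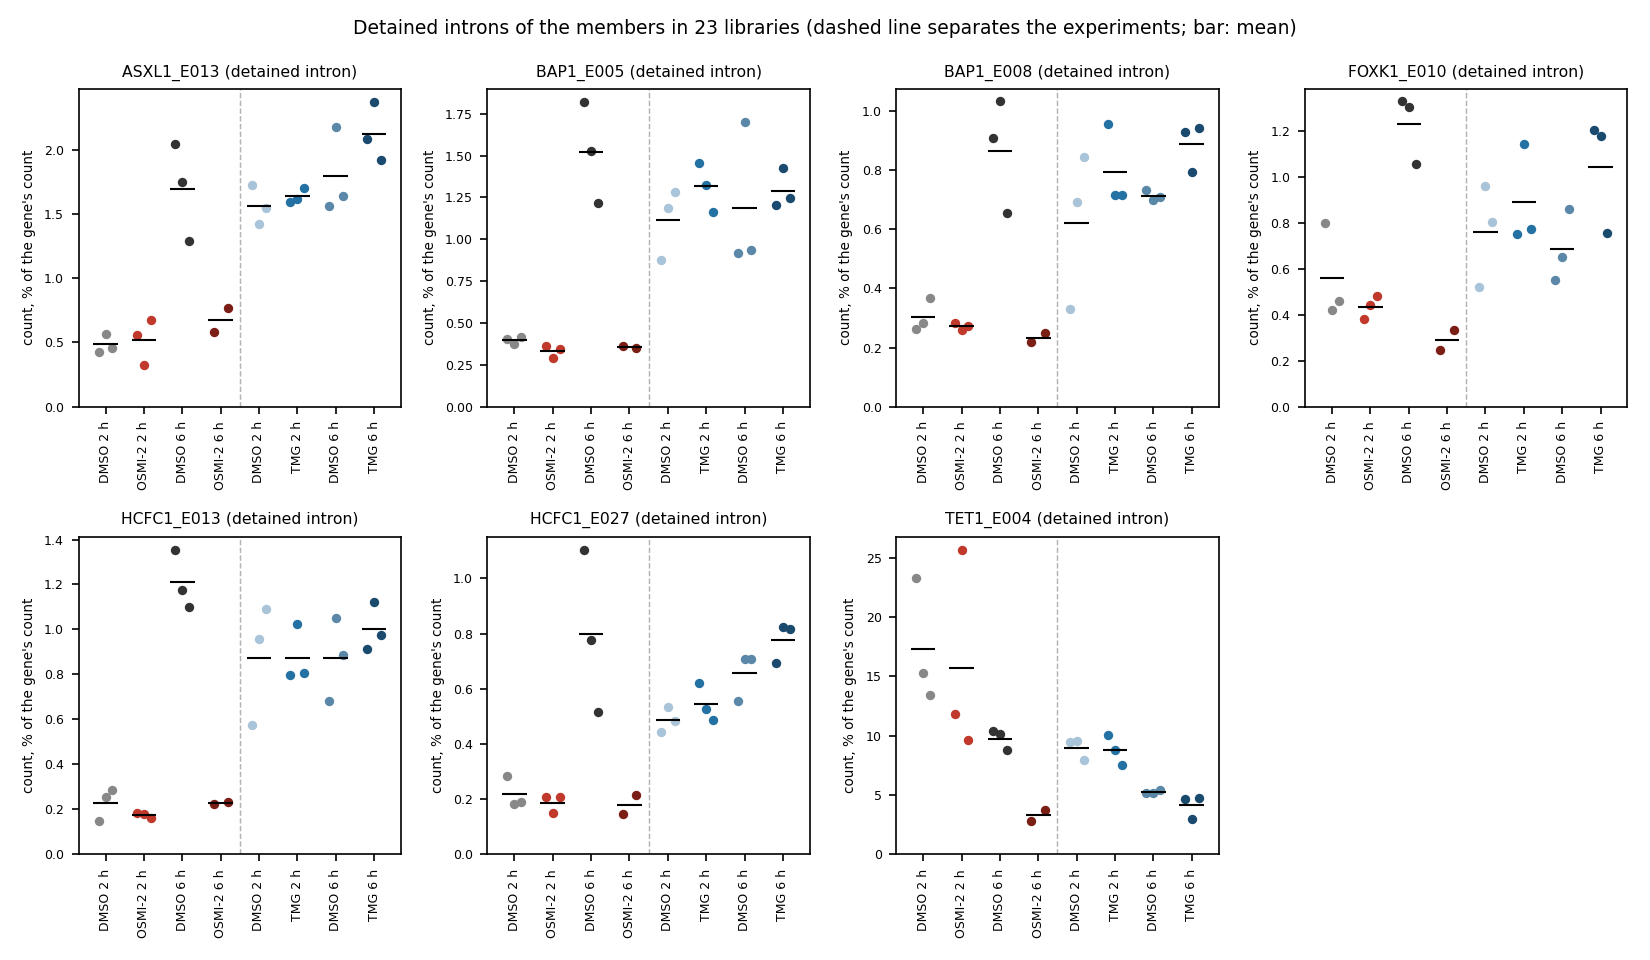
Count of each detained intron as a percentage of its gene's count (linear axis from 0), with 1 point per library, a bar at the group mean and the OSMI-2 experiment left of the dashed line. In the 6 introns other than that of TET1, DMSO 6 h is the highest group of the OSMI-2 experiment and OSMI-2 6 h lies near or below the 2 h groups, apart from ASXL1_E013, where it is slightly above DMSO at 2 h.

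Against DMSO at 6 h, 6 of the 7 introns were lower with OSMI-2 in edgeR, with log2 fold changes from -1.31 (BAP1_E008, SE 0.31) to -1.74 (HCFC1_E013, SE 0.31); of the 4677 introns tested 86.9% were called and 86.3% were called lower, and the median over all was -1.55, beside -1.42 for the members. TET1_E004 had -0.39 (SE 0.42, edgeR adjusted p = 0.374). Relative to the gene, in limma, all 7 were lower with OSMI-2, with 89.3% of 4616 introns called, and the log2 ratio changed by -2.38 for HCFC1_E013 (SE 0.30), -2.09 for HCFC1_E027, -2.07 for BAP1_E005, -2.02 for FOXK1_E010, -1.86 for BAP1_E008, -1.57 for TET1_E004 and -1.30 for ASXL1_E013 (SE 0.32, limma adjusted p = 6.15e-05). The member counts lie near the background, so these introns moved as most detained introns did. With factors from introns alone, which raise OSMI-2 6 h fold changes by 1.85 relative to plain totals, only TET1_E004 passed, in the other direction, at 1.10 (edgeR adjusted p = 0.0292).

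Between the DMSO groups of that experiment, the same 6 introns were higher at 6 h than at 2 h, by 0.93 (FOXK1_E010) to 2.07 (HCFC1_E013) on the log2 scale, and TET1_E004 fell by 0.96 (SE 0.34, edgeR adjusted p = 0.00752). Of the 4472 introns tested 90.3% were called, 88.5% higher and 1.79% lower. This comparison shares its DMSO 6 h libraries with the comparison of OSMI-2 at 6 h. FOXK1_E010, with 8 to 43 counts in these libraries, did not pass without DMSO 2 h library b, DMSO 2 h library c or DMSO 6 h library b (edgeR adjusted p from 0.0662 to 0.164), and TET1_E004 did not without DMSO 2 h library a or DMSO 6 h library c (0.0693 and 0.0550). OSMI-2 at 6 h against OSMI-2 at 2 h, which shares no DMSO library with either, called 0 of the 7 introns in edgeR, 2 of which had an unadjusted p under 0.05, beside 2.89% of 3772. In the TMG experiment, 0 of the 7 introns passed between the DMSO times in edgeR, none of them at an unadjusted p under 0.05, with 21.9% of 4095 called.

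TMG called none of the 7 introns in edgeR or limma at either time, also at an unadjusted p under 0.05. The background in edgeR was 9.81% of 4056 introns at 2 h, 393 of the 398 calls being higher, and 0.19% of 4219 at 6 h; in limma it was 9.8% and 0.191%. The limma background at TMG 2 h rests on the variance trend adopted after both outcomes were seen: its 395 introns became 5 with the default trend, 19 without TMG library b and 24 without TMG library a, while the 8 at TMG 6 h became 4 with the default trend and 249 without DMSO library b. The member count was 0 under each of these. The member log2 fold changes in edgeR ran from 0.09 (HCFC1_E013) to 0.40 (BAP1_E008) at 2 h, all positive, with a median of 0.26 beside 0.29 over all introns. At 6 h they ran from -0.29 (TET1_E004) to 0.54 (FOXK1_E010). OSMI-2 at 2 h called 0 of the 7 in either test, none at an unadjusted p under 0.05, beside 0.129% of 3107 in edgeR and 0.0643% of 3111 in limma.

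TET1_E004, the longest of the 7, also took the largest share of its gene's count. It held 13.4 to 23.3% of the TET1 count in DMSO at 2 h of the OSMI-2 experiment, 8.76 to 10.4% in DMSO at 6 h and 2.84 and 3.71% with OSMI-2 at 6 h. In the TMG experiment it took 7.98 to 9.54% in DMSO at 2 h, 7.57 to 10.0% with TMG at 2 h, 5.16 to 5.39% in DMSO at 6 h and 2.99 to 4.76% with TMG at 6 h. Per base its density was 3.84% ± 1.16 (SD, n = 3) of that of the gene's other bins in DMSO at 2 h of the OSMI-2 experiment, beside a median of 1.95% over all detained introns tested. With OSMI-2 at 2 h it was 3.48% beside 1.89%. In every other group it lay below the median, such as 1.99% beside 2.51% in DMSO at 2 h of the TMG experiment. In DMSO at 6 h of the OSMI-2 experiment it was 2.16% beside 6.76%. ASXL1_E013 was the densest of the 7 in 6 of the 8 groups, at 10.8% ± 1.70 (SD, n = 3) in DMSO at 2 h (where FOXK1_E010 was denser) and 38.0% ± 8.57 (SD, n = 3) at 6 h of that experiment, and FOXK1_E010, set against a model with a very long bin, had 17.0% ± 6.33 (SD, n = 3) and 37.3% ± 4.55 (SD, n = 3).

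The share of TET1_E004 was lower at 6 h than at 2 h in both DMSO series. The log2 ratio to the gene fell by 0.77 in each (limma adjusted p = 0.0322 in the OSMI-2 experiment and 0.0374 in the TMG experiment). In the former 89% of 4476 introns were called, but only 1.16% were called lower. In the latter 19.6% of 4077 were called, and 0.662% were called lower. TET1_E004 lost its call without DMSO 2 h library a or DMSO 6 h libraries b or c in the former (adjusted p from 0.0548 to 0.171 in limma) and without any of 4 of the 6 libraries in the latter (0.0775 to 0.140). TET1 gene counts in DMSO rose between those times in the TMG experiment, as given below, while its intron had a log2 fold change of 0.02 there. Between OSMI-2 at 6 h and at 2 h, TET1_E004 was the only 1 of the 7 called relative to its gene, with 2.71% of 3612 called (98 introns, and 1 to 159 under the alternatives): the log2 ratio fell by 2.10 (SE 0.34, limma adjusted p = 0.00618). It did not pass without OSMI-2 2 h library b (0.0603), without OSMI-2 6 h library a (0.111) or with the default variance trend (0.0940).

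The difference between the drugs was tested as an interaction at each time. At 2 h it called 0 of the 10 genes in edgeR (2 at an unadjusted p under 0.05; 0% of 12608 genes called, 1025 at an unadjusted p under 0.05) and 0 of the 7 introns (none at an unadjusted p under 0.05; 0.255% of 4306 called). At 6 h it called 1 gene, TET1, at 1.31 (SE 0.33, edgeR adjusted p = 0.0188; 19.9% of 12563 called) and 6 introns, all lower with OSMI-2 than with TMG, by log2 values from -1.43 (ASXL1_E013) to -1.93 (FOXK1_E010 and HCFC1_E013; 74.2% of 4677 called). TET1_E004 had 0.08 (SE 0.48). Over all genes, calls of this interaction reached 9408 at most when a single library was left out, against 2500 with all libraries. Member counts from such fits therefore cannot be set against the 19.9%. Without DMSO library a of the OSMI-2 experiment 9 of the 10 genes passed, and without OSMI-2 library b, TMG library b or TMG library c none did (edgeR adjusted p of TET1 0.0976, 0.0516 and 0.0517).

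Exon bins, each set relative to its gene, moved little with the drugs. OSMI-2 at 6 h called 5 of 133 member bins in limma, 2 in ASXL1 and 3 in FOXK2, beside 2.34% of 125415 bins. That count rests on a setting chosen after both outcomes were seen: the first run took the variance trend of limma over the mean log ratio, its default, and called 0 of the 133 bins and 0 of all bins, with adjusted p of 0.141 to 0.310 for these 5, and the trend over the mean count was then adopted. In limma 0 of 123 member bins were called for OSMI-2 at 2 h (1 at an unadjusted p under 0.05; 0% of 115836), 0 of 144 for TMG at 2 h (10; 0.0181% of 132319) and 0 of 145 for TMG at 6 h (10; 0.0102% of 127914).

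ASXL1_E009 (hg19 chr20:30959967-30960359), 393 bases in a class of alternative last exons per the authors' table, took 0.428, 0.612 and 0.464% of the ASXL1 count in DMSO at 6 h and 1.12 and 1.02% with OSMI-2. It took 1.91, 1.47 and 1.68% in DMSO at 2 h of that experiment and 0.448 to 0.519% in DMSO at 6 h of the TMG experiment, so the OSMI-2 6 h libraries lay between the DMSO times. The log2 ratio change with OSMI-2 was 1.09 (SE 0.19, limma adjusted p = 0.00612), and 0.131 and 0.0597 without OSMI-2 library a or b. ASXL1_E003 (chr20:30956818-30956926) took 2.27, 2.45 and 2.50% in DMSO and 3.31 and 3.44% with OSMI-2, a log2 ratio change of 0.49 (SE 0.09).

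FOXK2_E005 (hg19 chr17:80529747-80536495), also of a last-exon class, took 1.09, 1.04 and 0.749% of the FOXK2 count in DMSO at 6 h and 0.361 and 0.342% with OSMI-2, a log2 ratio change of -1.42 (SE 0.19, limma adjusted p = 0.00102). In DMSO at 2 h of that experiment it took 0.702, 0.597 and 0.360%, so the OSMI-2 6 h libraries lay close to the lowest of these, library c. It was the only 1 of the 5 that passed without either OSMI-2 library (limma adjusted p = 0.0173 and 0.0148). FOXK2_E007 changed by 0.31 (SE 0.06) and the last bin, FOXK2_E012, which holds 46.3 to 53.1% of the gene's count in these libraries, by -0.15 (SE 0.04). The authors' deposited table tests bin usage in its own model. It has 11 member exon bins past an adjusted p of 0.05 at OSMI-2 6 h, and gives FOXK2_E005 a log2 fold change of -1.52. The share of all exon bins past that threshold in it is not given here, so the 11 have no background beside them.

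**Figure D4:**
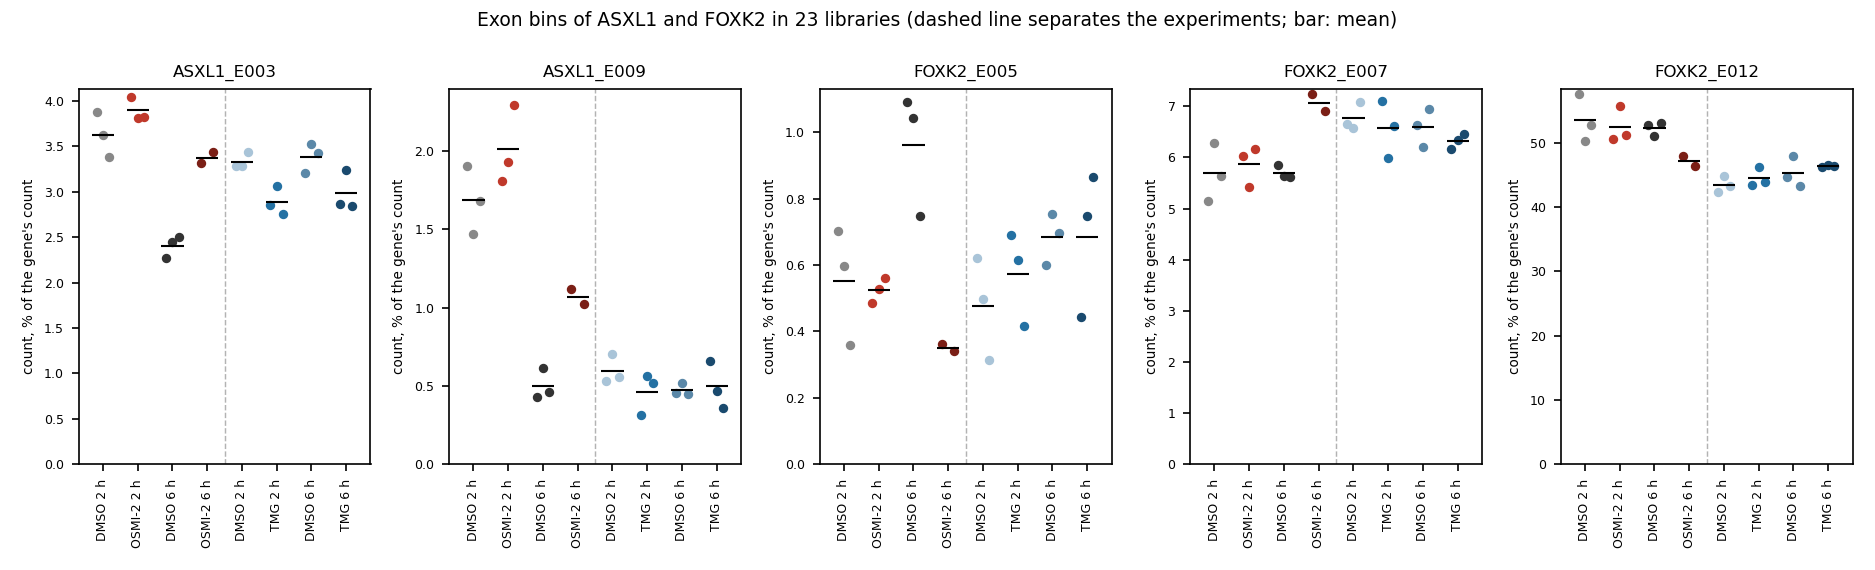
Count of 5 exon bins of ASXL1 and FOXK2 as a percentage of the gene's count (linear axis from 0), with 1 point per library, a bar at the group mean and the OSMI-2 experiment left of the dashed line. These are the bins called at OSMI-2 6 h with a variance trend over the mean count; ASXL1_E009 at 6 h lies below its level at 2 h of the OSMI-2 experiment also with OSMI-2.

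The DMSO libraries themselves differed between times and experiments. In the TMG experiment, DMSO at 6 h against 2 h called 5 of the 10 genes in edgeR beside 45.9% of 12294. TET1 rose by 0.80 (SE 0.10, edgeR adjusted p = 8.33e-07) and TET2 by 0.67 (SE 0.09, edgeR adjusted p = 3.64e-06), while FOXK1 rose by 0.28, BAP1 rose by 0.22 and FOXK2 fell by 0.28. The FOXK1 and BAP1 calls ended when single libraries were left out, DMSO 6 h library a among them (edgeR adjusted p = 0.0514 and 0.0699). In the OSMI-2 experiment 1 of the 10 was called beside 18.5% of 12343 (4.59% higher): SP1 rose by 0.98 (SE 0.29, edgeR adjusted p = 0.0177), and did not pass without DMSO 2 h library a (0.105) or c (0.102). On plain totals SP1 had 5.78, 7.39 and 4.45 CPM in DMSO at 2 h and 22.9, 15.4 and 13.4 CPM at 6 h. The scaling lowered the log2 fold changes of this comparison by 0.56 relative to plain totals. OSMI-2 at 6 h against OSMI-2 at 2 h called 0 of the 10 genes and 0 of 12492 in edgeR, with 6 and 3621 at an unadjusted p under 0.05, and the values of all 10 were positive. Without OSMI-2 2 h library b or c 324 and 926 genes passed, 1 of them a member in each case.

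For TET2, SP1, BAP1, FOXK1, HCFC1, FOXK2 and ASXL1 the difference between the experiments in DMSO at 2 h was larger in size than the value with either drug at either time. For TET1, TET3 and SIN3A it was not. At 2 h TET2 had 2.54, 3.27 and 2.51 CPM on plain totals in the OSMI-2 experiment and 13.5, 15.4 and 17.0 CPM in the TMG experiment, and SP1 had 25.2, 29.1 and 29.95 CPM in the latter. In edgeR, TET2 was higher in the TMG experiment by 1.98 (SE 0.14), SP1 by 1.78 (SE 0.15) and TET1 by 0.51 (SE 0.14), and BAP1 (-1.35, SE 0.14), FOXK1 (-1.02), HCFC1 (-0.85), FOXK2 (-0.66) and ASXL1 (-0.27) were lower, so 8 of the 10 were called beside 80.9% of 12392 genes (40.3% higher). At 6 h 5 were called beside 69.2% of 12377 (40.1% higher): TET2 (2.46, SE 0.36), TET1 (1.69, SE 0.28), SP1 (1.01) and SIN3A (0.86) higher and BAP1 (-0.76) lower. Of the 7 introns edgeR called 2 at 2 h (55.8% of 3677), ASXL1_E013 and HCFC1_E013, both higher in the TMG experiment, and 4 at 6 h (62.9% of 4611), all lower. Relative to the gene limma called 6 at 2 h (45.5% of 3628), of which TET1_E004 alone was lower, and TET1_E004 alone at 6 h (57.1% of 4585). It called 98 of 138 member exon bins at 2 h (40.3% of 128591) and 68 of 140 at 6 h (24.4% of 130587). Cells, extraction, library preparation and sequencing cannot be told apart in this difference.

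The distribution of counts along HCFC1 differed in the same comparisons. Its last bin, HCFC1_E001 (hg19 chrX:153213002-153213903), took 31.9, 19.9 and 27.0% of the gene's count in DMSO at 2 h of the OSMI-2 experiment, 14.6, 14.0 and 17.0% in DMSO at 6 h, and 14.8 and 15.4% with OSMI-2 at 6 h. In the TMG experiment all 12 libraries had 8.40 to 10.1%. Between the DMSO times of the OSMI-2 experiment the log2 ratio of this bin fell by 0.77 (SE 0.13, limma adjusted p = 0.00340), and 17 HCFC1 bins were called, 15 higher and 2 lower, among 25 of 127 member bins (6.62% of 118214 bins; 1 member bin with the default trend). Bins near the start of HCFC1 were higher, such as HCFC1_E033 by 0.56 (SE 0.09) and HCFC1_E032 by 0.57 (SE 0.13). The gene's count includes HCFC1_E001, so a lower share of that bin raises the shares of the others. The calls within HCFC1 are therefore not separate results. In the same comparison 4 ASXL1 bins were lower, and ASXL1_E009 fell by 1.74 (SE 0.17). The last bins of BAP1 and SIN3A, both named E001, fell by 0.28 (SE 0.05) and 0.29 (SE 0.06). The count of 25 ran from 10 to 32 when single libraries were left out. In the TMG experiment 2 of 144 member bins were called between DMSO times (3.94% of 131034): ASXL1_E021 rose by 0.48 and FOXK2_E001 fell by 0.48; with the default trend none was called. OSMI-2 at 6 h against 2 h called 0 of 130 member bins in limma (57 at an unadjusted p under 0.05; 0.00404% of 123622); without OSMI-2 2 h library a 31 member bins and 6000 of all bins passed, and without library b 1 and 147. Whether the shape of coverage plays a part in the gene or intron results was not tested.

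**Figure D5:**
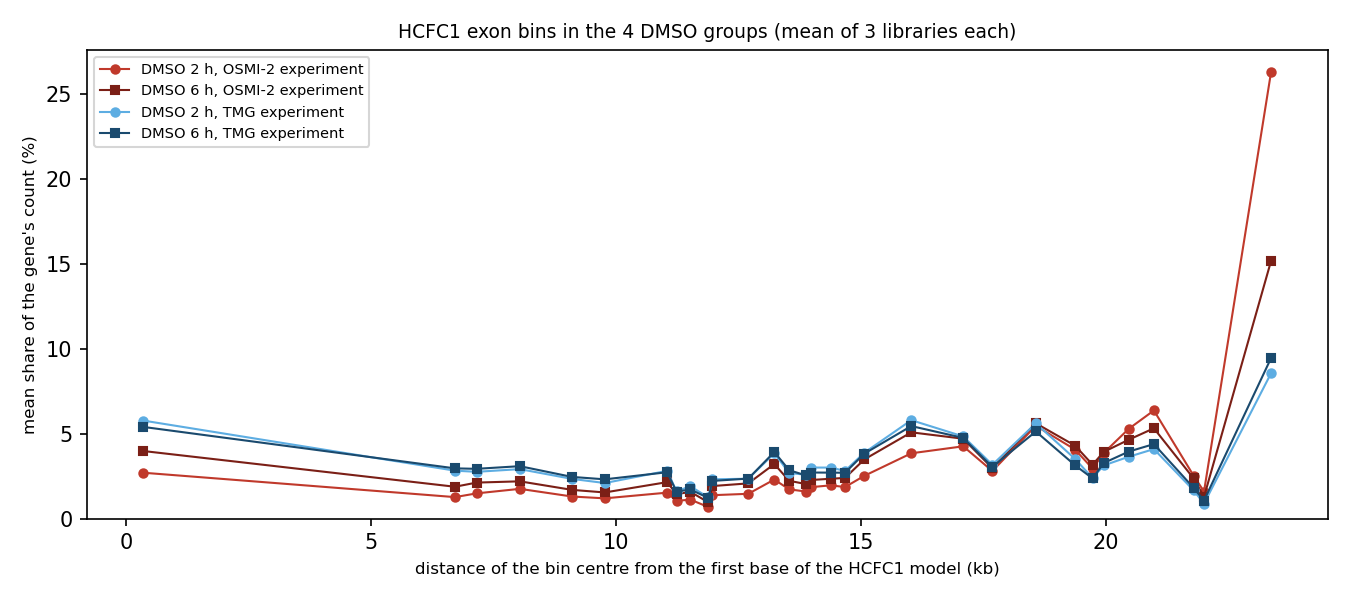
Mean share of the HCFC1 count in each exon bin (vertical axis, percent) against the distance of the bin's centre from the first base of the gene model (kilobases), for the 4 DMSO groups of 3 libraries each. The last bin stands out at 26.3% in DMSO at 2 h of the OSMI-2 experiment, against 15.2% at 6 h and 8.56 and 9.46% in the TMG experiment.

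A list of 50 other genes of the complexes around these proteins was set beside them (16 of the SIN3 deacetylase complex, 12 partners of BAP1 and HCF-1, 8 of the SET1 methyltransferase complex, 6 of the NSL acetyltransferase complex, 5 listed under DNA methylation, and 3 SP factors). All 50 were tested. OSMI-2 at 2 h called 0 in edgeR. OSMI-2 at 6 h called 0 higher and 1 lower, KANSL2, an NSL subunit, at -1.43 (SE 0.33, edgeR adjusted p = 0.00456). The list median was 0.19 there, beside 0.15 over all genes. TMG at 2 h called 2 higher: DNMT3A, a DNA methyltransferase, at 0.24 (SE 0.08) and ZNF143, a partner of HCF-1, at 0.23 (SE 0.07). TMG at 6 h called ZNF143 at 0.46 (SE 0.07) and SP2 at 0.46 (SE 0.12), both higher, and THAP11, another partner of HCF-1, at -0.35 (SE 0.10).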

How the data were processed

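Polyadenylated RNA of HEK293T cells was sequenced from stranded libraries. Reads were aligned with STAR to hg19, per the submitters' processing notes; the version is not given. The authors deposited 4 tables of whole-number counts per bin, without normalization, in the columns of a DEXSeq result, per the file headers. Bin usage as tested by the authors (p-value and log2 fold change in the deposited tables) served as an alternative only. Use of strand in counting is not given in the sources used here, so overlapping genes may share counts. Total counts were 39465746 to 100161560 per library.

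Genes were summed over all bins not classed as detained introns. Library size was the table total, scaled by TMM over genes and introns. Genes and introns were tested with edgeR 4.0.16 (glmQLFit, glmQLFTest, filterByExpr) in R 4.3.3, and each bin's ratio to its gene (log2, with 1 added to both counts) in limma 3.58.1, for bins with a mean count of at least 10. Tests were two-sided, adjusted by Benjamini-Hochberg over all features, with a threshold of 0.05, and were tested on simulated data; a feature that did not pass is not shown to be unchanged. SE is the log2 fold change over the root of the F statistic (edgeR). DESeq2 1.42.0 was an alternative. Columns carry letters that match no replicate number in the titles, so libraries are named by letter. Where 1 treated library remains after leaving out the other, it is assumed to vary like the controls.

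For the limma tests 2 variance trends were run: first the default, over the mean log ratio, then one over the mean count of the bin. The second was adopted as the reported test after the calls of both had been seen, because the variance of a ratio depends on its count and because it lies nearer to an earlier analysis of these data; the first changes the calls of exon bins, and of introns relative to their gene with TMG and between OSMI-2 times, and is given beside them. The comparisons of DMSO between experiments, of OSMI-2 at 6 h with OSMI-2 at 2 h, and all tests of bins relative to their gene outside the 4 drug comparisons were added after the data had been seen. The members and lists were chosen with earlier results of these data known. Named were all 10 genes, their introns, OGT and MGEA5, exon bins past the threshold (the 3 largest of a gene, with a mean of at least 50 counts, where more passed) and the 3 largest changes of the pathway list. ASXL1_E009 in other groups, and library and bin facts beside results, were chosen after values were seen. Some marker values are not reported here.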

Additional observations from a re-analysis of the deposited data

Results flagged for a closer look

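The effect of OSMI-2 at 6 h differed from that of TMG at 6 h, by an interaction test in edgeR, in 7 of the features described. The background was 19.9% of 12563 genes and 74.2% of 4677 introns called, so neither the gene nor the introns stand out by number. TET1 differed by 1.31 on the log2 scale (SE 0.33, edgeR adjusted p = 0.0188), and this call ended without TMG library b or c. After scaling, TET1 was higher with OSMI-2 in 2 of 2 libraries and near its control with TMG. On plain totals the groups overlap, with 10.4 CPM in DMSO library a beside 10.0 and 10.9 CPM with OSMI-2. Introns differed by -1.43 (ASXL1_E013), -1.52 (BAP1_E005), -1.50 (BAP1_E008), -1.93 (FOXK1_E010), -1.93 (HCFC1_E013) and -1.64 (HCFC1_E027). The intron values rest on the DMSO 6 h libraries of the OSMI-2 experiment, in which intron shares were above those of DMSO at 2 h.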

How the results depend on the processing

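No paired analysis was possible because the count columns carry letters that match no replicate number in the sample titles, and nothing says that a shared letter marks a pair. Of 3459 alternatives over 448 single values, 3054 kept their side of the threshold, 118 of these with a change of sign where neither value passed; 361 lost a call, 40 gained one and 4 reversed. With TMM over introns alone at OSMI-2 6 h, 1 intron of the members was called in place of 6, and values reversed to 0.12 (ASXL1_E013), 0.17 (BAP1_E008), 0.063 (HCFC1_E027) and 1.10 (TET1_E004); the shift comes with the factors themselves. The number of member genes called at OSMI-2 6 h was 1, against 0 with TMM over genes only, 7 in a fit of all libraries, and 0 to 5 when libraries were left out. At TMG 2 h and TMG 6 h it was 1 each, against 0 and 0 in a fit of all libraries and 0 to 2 in both when libraries were left out. It was 0 to 3 for DMSO 6 h against 2 h in the OSMI-2 experiment and 0 to 9 for the difference between drugs at 6 h. Member exon bins called at OSMI-2 6 h numbered 5, against 0 with the default variance trend, 11 in the authors' deposited table and 1 to 5 when libraries were left out. The share of all features called under each setting is not given beside these member counts. They therefore have no background here and are not read as results about the members. Causes were not tested.

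Counts over all features moved by more than 1.5 times. Genes called at OSMI-2 6 h (617) ran from 0 to 5981, at TMG 2 h (978) from 0 to 1212 and at TMG 6 h (730) from 2 to 1248. Introns called at OSMI-2 6 h (4063) ran from 770 to 4092, at TMG 2 h (398) from 3 to 562 and at TMG 6 h (8) from 3 to 332. Introns relative to the gene ran from 5 to 466 at TMG 2 h (395) and from 4 to 249 at TMG 6 h (8). Exon bins at OSMI-2 6 h (2938) ran from 0 to 6033, at TMG 2 h (24) from 0 to 186 and at TMG 6 h (13) from 0 to 50. Between DMSO times, genes in the OSMI-2 experiment (2289) ran from 519 to 4589, introns in the TMG experiment (897) from 353 to 1480, and exon bins from 1051 to 11171 (7828, OSMI-2 experiment) and from 10 to 8570 (5157, TMG experiment). For the difference between drugs at 6 h, genes (2500) ran from 22 to 9408 and introns (3472) from 2160 to 3661. For OSMI-2 at 6 h against 2 h, genes (0) ran from 0 to 926, introns (109) from 27 to 237, introns relative to the gene (98) from 1 to 159 and exon bins (5) from 0 to 6000. FOXK1_E010 had the fewest counts of the introns described, 7 to 43 per library.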
